A study of Mus musculus with 91 samples.

Results

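Classical cadherins and non-clustered protocadherins are a set of 29 genes, a small part of the 34745 gene rows measured in 91 single neurons of mouse primary visual cortex (V1). They were taken by name: 5 type I classical cadherins (*Cdh1*, *Cdh2*, *Cdh3*, *Cdh4* and *Cdh15*), 13 type II cadherins (*Cdh5* to *Cdh12*, *Cdh18*, *Cdh19*, *Cdh20*, *Cdh22* and *Cdh24*), the GPI-anchored *Cdh13*, 4 delta-1 protocadherins (*Pcdh1*, *Pcdh7*, *Pcdh9* and *Pcdh11x*), 5 delta-2 protocadherins (*Pcdh8*, *Pcdh10*, *Pcdh17*, *Pcdh18* and *Pcdh19*), and *Pcdh20*. The neurons were pyramidal neurons (Pyrs) of layer 5 (L5) in wild-type adult mice, collected by Patch-seq, in which a neuron is recorded with a pipette in a brain slice and its contents are then drawn up for RNA sequencing. Of the 91 neurons, 47 were labelled Pyr←LP, for the type driven by the lateral posterior thalamic nucleus (LP), and 44 Pyr←ORBvl, for the type driven by the ventrolateral orbitofrontal cortex (ORBvl). In this experiment the type came from a classifier on the slope of the hyperpolarization-activated current, so a label stands for an electrical property and not for an input recorded in that neuron.

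Cadherins are calcium-dependent adhesion proteins of the cell surface. Classical cadherins bind a cadherin on the neighbouring cell and are tied to the actin cytoskeleton through catenins, whereas delta protocadherins bind weakly, lack the catenin-binding tail and signal to the cytoskeleton by other routes. In the cortex, type II cadherins and delta protocadherins are known for patterns that differ between layers and neuron types, and for roles in the targeting of axons and the matching of synapses.

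All results below rest on the 83 neurons (44 Pyr←LP and 39 Pyr←ORBvl) that had at least 500 counts and a sum of 3 GABAergic genes, on a log2 scale of counts, of at most 7, unless other neurons are named. Total counts per neuron ranged from 2545 to 1948982 in Pyr←LP neurons (median 399786) and from 2410 to 1699215 in Pyr←ORBvl neurons (median 443593). The neuronal gene *Snap25* had counts in all 83 neurons, *Slc17a7*, the vesicular glutamate transporter of cortical excitatory neurons, in 32 of 44 and 31 of 39, and at least 1 of 5 L5 markers in 30 and 33. Of these, *Fezf2* had counts in 18 and 27 neurons, *Bcl11b* in 5 and 15, *Etv1* in 15 and 22, *Crym* in 9 and 23, and *Deptor* in 14 and 5. The 3 GABAergic genes (*Gad1*, *Gad2* and *Slc32a1*) still had counts in 9 Pyr←LP neurons (none of the 3 at 0) and 8 Pyr←ORBvl neurons (*Slc32a1* at 0), with sums of up to 349 and 822 CPM and medians of 0. The summed level of 4 oligodendrocyte markers was 0 to 8644 CPM (counts scaled to the total of the library; median 799.6) in Pyr←LP neurons, where *Mog* and *Mag* were at 0, and 2.81 to 23517 CPM (median 1629) in Pyr←ORBvl neurons, nearly all of it *Mbp*. The 4 microglial markers summed to 0 to 8072 CPM (median 330.0) and 0 to 4481 CPM (median 403), with none of the 4 at 0 in either type. The 5 astrocyte markers had medians of 0 and 1.13 CPM, with highest sums of 2176 and 1003 CPM, and none was at 0 in either type. The 4 endothelial markers had counts in 2 Pyr←LP neurons (2 genes at 0) and 1 Pyr←ORBvl neuron (3 genes at 0), and the 4 pericyte or fibroblast markers in 3 (2 genes at 0) and 0 (all 4 at 0). The part of these markers in the results below was not tested.

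The family was detected sparsely. A count was found for 25 of the 29 members in the 83 neurons, and none of these neurons held more than 13 of them. *Cdh1* (E-cadherin) and *Cdh3* (P-cadherin), best known from epithelia, and *Cdh19* had no count in any of the 91 neurons, and *Cdh15*, the cadherin of muscle, had a count in 1 neuron that was not among the 83. For each of these 4 members, 0 of 83 neurons allows a share of up to 3.61%. Here and below, the limit for 0 is 3 divided by the number of neurons. It is lower than the upper end of the 95% Wilson interval, which is 4.42% for 0 of 83. At the other end, *Pcdh9* had a count in 51 of the 83 neurons (61.4%, 95% Wilson interval 50.7 to 71.2%), *Pcdh17* in 47, *Pcdh7* in 45, *Pcdh8* in 37, *Pcdh10* in 36 and *Cdh10* in 35. Neighbours in this order do not differ beyond their intervals, which run from 43.6 to 64.5% for *Pcdh7* and from 32.1 to 52.9% for *Cdh10*. The next were *Cdh8* (28 neurons), *Pcdh1* (21), *Cdh6* (18), *Cdh2* (17) and *Cdh11* (17). Intervals and limits of this kind cover counting error only.

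The order by level differed from the order by share. On the FPKM scale, which allows for gene length, the means over the 83 neurons were 16.2 ± 44.3 (SD) for *Cdh6*, 15.3 ± 35.9 for *Cdh10*, 11.3 ± 34.6 for *Cdh11* and 10.96 ± 27.1 for *Pcdh8*. *Pcdh9*, the most often detected member, had a mean of 5.19 ± 9.28 FPKM, and *Pcdh10* had 1.601 ± 3.46. This order is over both types together. In Pyr←LP neurons the highest mean was that of *Cdh10* (23.9 FPKM), with *Pcdh8* at 0.602, and in Pyr←ORBvl neurons the highest were *Pcdh8* (22.7), *Cdh6* (21.5) and *Cdh22* (16.2). Without the highest neuron of each, *Cdh10* stood at 20.2 FPKM in Pyr←LP neurons. In Pyr←ORBvl neurons *Pcdh8* then stood at 19.1, *Cdh6* at 15.2 and *Cdh22* at 10.2. Over the 83 neurons, the SD was larger than the mean for each of the 6 members given with one.

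**Figure D1:**
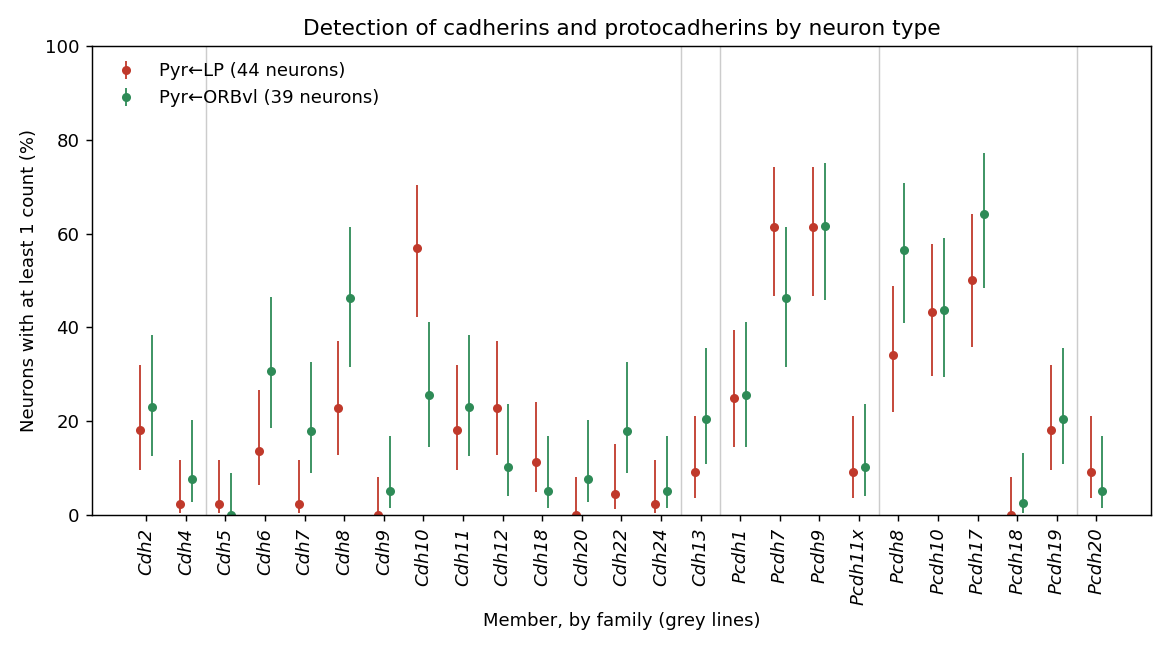
Share of neurons with at least 1 count (y axis, percent) for each of the 25 members with a count (x axis, by family), in 44 Pyr←LP neurons (red) and 39 Pyr←ORBvl neurons (green). Bars are 95% Wilson intervals. *Cdh10* stood at 56.8% against 25.6%, and *Cdh8*, *Cdh6*, *Cdh7* and *Pcdh8* were more often detected in Pyr←ORBvl neurons. By share, 19 members were higher in Pyr←ORBvl and 6 in Pyr←LP neurons, and no difference in share passed the adjusted threshold.

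The main comparison asked which members differ between these L5 Pyr types. Counts of 13 members passed the filter on low counts (at least 5 counts in at least 10 neurons), and edgeR called 1 of them at an adjusted p under 0.05 and a change over 2-fold: *Pcdh8*, higher in Pyr←ORBvl neurons. The same rule called 170 of all 7542 genes tested (2.25%), 66 of them higher in Pyr←ORBvl neurons (0.875%). The log2 fold change (Pyr←ORBvl over Pyr←LP) was positive for 8 and negative for 5 of the 13 members, with a median of 0.42, beside 0.07 over all genes tested. Another 12 members had a count but did not pass this filter. The p-values measure the spread among neurons, because the sources used here do not tie a neuron to its mouse. The neurons came from far fewer mice than there are neurons, so neurons of the same mouse are counted as if they were independent, and the p-values may be too small.

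**Figure D2:**
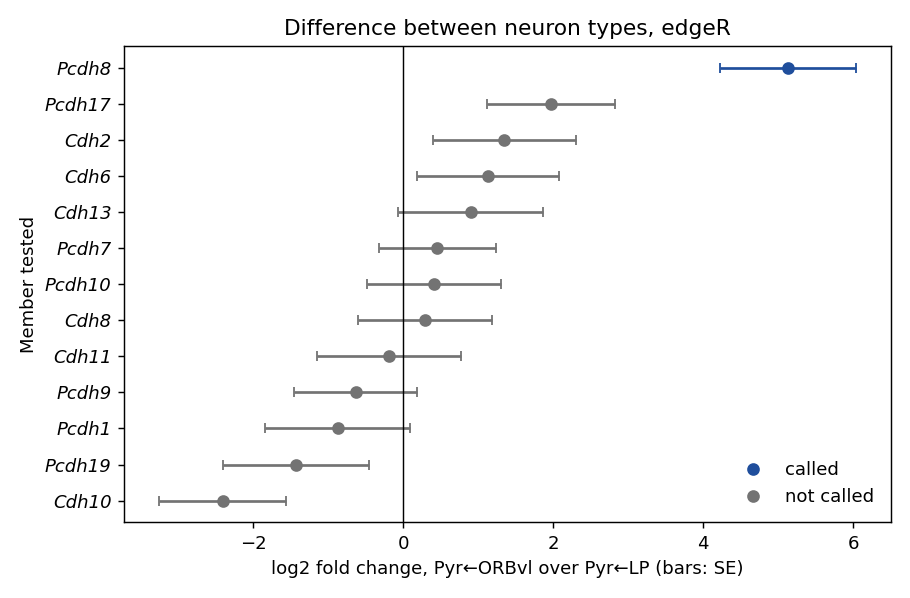
Log2 fold change of the 13 members tested by edgeR (x axis, positive is higher in Pyr←ORBvl neurons; bars are standard errors), ordered by value. *Pcdh8*, the only one called (blue), lies at 5.13, and the others lie between -2.41 and 1.97.

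*Pcdh8* (chr14:79766772-79771312, minus strand, GRCm38) encodes a delta-2 protocadherin, also called arcadlin, which is known as an activity-regulated protein that acts on the uptake of N-cadherin at synapses. Among the 44 Pyr←LP neurons, the lowest count was 0, the median 0 and the highest 20, with 29 neurons at 0 and 11 at 1 to 4 counts. Among the 39 Pyr←ORBvl neurons, the lowest was 0, the median 2 and the highest 1227, with 17 neurons at 0 and 5 at 1 to 4 counts. Thus 16 Pyr←ORBvl neurons lay above the highest Pyr←LP neuron, whereas the other 23 lay within the Pyr←LP range. In the neurons with a count, the median was 1 count in Pyr←LP and 88 counts in Pyr←ORBvl neurons. The level was 0.602 ± 1.75 FPKM (SD, n = 44) against 22.7 ± 36.4 FPKM (SD, n = 39), and 0 Pyr←LP and 16 Pyr←ORBvl neurons exceeded 10 FPKM.

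The fitted log2 fold change of *Pcdh8* was 5.13 (standard error, SE, 0.91, adjusted p = 2.65e-05, edgeR), and adjusted p ranged from 6.22e-08 to 0.231 over the other fits. The highest came from counts summed per type within each of the 14 name prefixes that held both types (log2 fold change 6.52), a test in which 3 genes of the whole table were called. DESeq2 also called *Pcdh8* on the 83 neurons, among 43 of the 6372 genes to which it gave an adjusted p (0.675%), and called *Pcdh8* and *Cdh10* on the 80 neurons of the study's marker heat map (0.959% of such genes). The mean was higher in Pyr←ORBvl neurons in 11 of these 14 prefixes, lower in 2 and 0 in both types in 1, and a fit with a term for the prefix gave 6.23 (adjusted p = 0.00173). The share of neurons with any count differed less than the level: 34.1% (15 of 44) against 56.4% (22 of 39; Fisher's exact test, two-sided, p = 0.0490, adjusted p = 0.581). In both types, neurons with a *Pcdh8* count were more deeply sequenced than those without, with median totals of 681272 against 387688 counts in Pyr←LP and 548379 against 443593 in Pyr←ORBvl neurons.

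**Figure D3:**
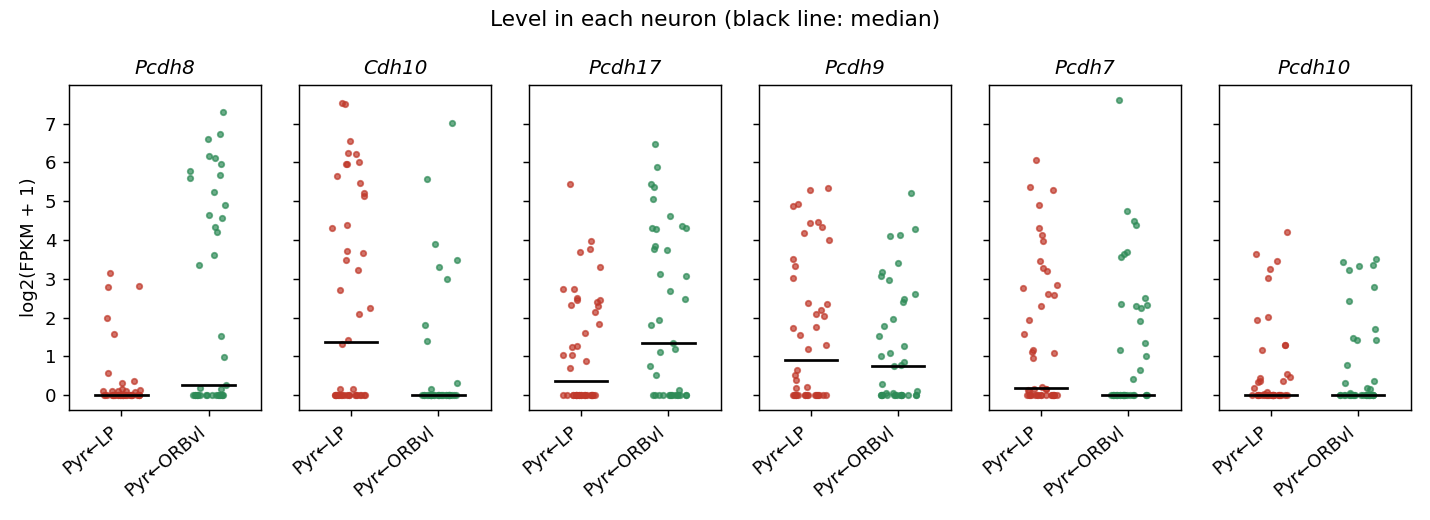
Level of 6 members in each of the 83 neurons, as log2(FPKM + 1) (y axis), in Pyr←LP (red) and Pyr←ORBvl neurons (green); dots are neurons and black lines medians. For *Pcdh8*, 16 Pyr←ORBvl neurons lie above 10 FPKM and no Pyr←LP neuron does; for *Cdh10*, 17 Pyr←LP and 4 Pyr←ORBvl neurons lie above 10 FPKM.

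A second gene overlaps *Pcdh8* on the opposite strand. *Gm9748*, an antisense transcript, shares 436 bases with the exons of *Pcdh8* (9.61% of them, GENCODE M21), and had counts in 13 Pyr←ORBvl neurons and in no Pyr←LP neuron (0 of 44, which allows a share of up to 6.82%). All 13 also had *Pcdh8* counts. In the 12 of them with at least 30 *Pcdh8* counts, the *Gm9748* count was 4.07 to 17.1% of the *Pcdh8* count (median 5.62%). The remaining neuron had 8 *Gm9748* counts and 2 *Pcdh8* counts. Another 9 Pyr←ORBvl neurons had *Pcdh8* counts without *Gm9748*, up to 253 counts. The libraries were made with a Smart-seq2-based kit, which does not keep the strand, so reads of the shared bases cannot be told apart, and the rows of *Pcdh8* and *Gm9748* are not 2 independent measurements.

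**Figure D4:**
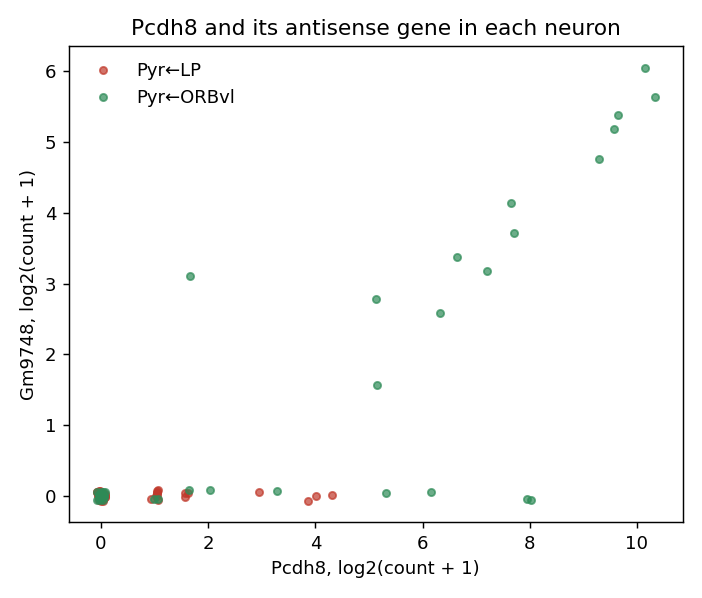
Counts of *Gm9748* (y axis) against counts of *Pcdh8* (x axis), both as log2(count + 1) with a small random shift, in 44 Pyr←LP (red) and 39 Pyr←ORBvl neurons (green). All 13 neurons with *Gm9748* are Pyr←ORBvl neurons with *Pcdh8* counts.

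The upstream sequences of *Pcdh8* and of *Cdh10* are shown because, among the 13 members tested, these 2 had the largest log2 fold changes in each direction. Both are the 250 bases before the start listed in the RefSeq promoter table (GRCm38.p6), at chr14:79771313-79771562 on the minus strand and chr15:18820079-18820328 on the plus strand, with TATAAA in capitals:
Pcdh8: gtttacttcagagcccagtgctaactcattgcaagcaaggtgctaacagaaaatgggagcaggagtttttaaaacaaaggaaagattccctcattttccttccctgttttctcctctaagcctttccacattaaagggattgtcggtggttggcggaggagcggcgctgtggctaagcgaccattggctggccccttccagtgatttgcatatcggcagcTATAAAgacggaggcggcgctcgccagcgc
Cdh10: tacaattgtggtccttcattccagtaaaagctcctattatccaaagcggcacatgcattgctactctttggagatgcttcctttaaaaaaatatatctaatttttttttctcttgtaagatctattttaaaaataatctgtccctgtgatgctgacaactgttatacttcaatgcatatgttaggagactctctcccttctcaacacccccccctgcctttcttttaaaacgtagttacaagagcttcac
The *Pcdh8* window adjoins the end of the gene span given above. The *Cdh10* window lies inside its gene span, whose first base is upstream of it, so it is not the sequence before the outermost annotated start of *Cdh10*. In *Pcdh8*, TATAAA begins 30 bases before the listed start, and these letters, on either strand, were found in 12.4% of the 32851 windows of this length in the table and not in that of *Cdh10*. The *Pcdh8* window held 11 CpG dinucleotides and that of *Cdh10* held 2, beside a median of 6 over all windows. These are descriptions of the letters, and their part in the measured levels was not tested.

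None of the 3 other delta-2 protocadherins that could be tested (*Pcdh17*, *Pcdh10* and *Pcdh19*) was called. *Pcdh17*, which is known from corticostriatal pathways, where it acts at presynaptic sites, had counts of 0 to 134 (median 0.5) in Pyr←LP neurons and 0 to 436 (median 7) in Pyr←ORBvl neurons. In counts, 5 Pyr←ORBvl neurons lay above the highest Pyr←LP neuron, but only 2 did in CPM, and the ranges otherwise overlapped. The level was 3.23 ± 7.05 FPKM (SD, n = 44) against 11.1 ± 18.8 FPKM (SD, n = 39), with a log2 fold change of 1.97 (SE 0.85, adjusted p = 0.312, edgeR) and a higher mean in Pyr←ORBvl neurons in 12 of 14 prefixes. *Pcdh10* (OL-protocadherin), linked to axon growth and synapse removal, had counts of 0 to 223 and 0 to 264 with medians of 0 in both types, and was detected in 19 of 44 and 17 of 39 neurons (0.42, SE 0.89, adjusted p = 0.977). *Pcdh19*, the X-linked epilepsy gene, was detected in 8 neurons of each type and had 4 Pyr←LP neurons above the highest Pyr←ORBvl neuron, with maxima of 674 and 97 counts (-1.42, SE 0.97, adjusted p = 0.736). Its log2 fold change was -0.038 with the prefix as a block and 0.53 with sums per prefix. *Pcdh18* had 174 counts in a single Pyr←ORBvl neuron and none in the other 82, and *Pcdh20*, outside the delta groups, had counts in 4 and 2 neurons.

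Among the delta-1 protocadherins, none of the 3 tested was called. *Pcdh9*, the most widely detected member, had counts of 0 to 629 (median 3.5) in Pyr←LP and 0 to 503 (median 2) in Pyr←ORBvl neurons, and was detected in 61.4% and 61.5% of them. Its level was 6.46 ± 10.7 against 3.75 ± 7.22 FPKM, with a log2 fold change of -0.63 (SE 0.82, adjusted p = 0.937), and the mean was higher in Pyr←LP neurons in 11 of 14 prefixes. The log2 fold change of *Pcdh9* was -2.84 (adjusted p = 0.336, edgeR) with the prefix as a block, -2.85 with sums per prefix and -0.041 in neurons with at least 100000 counts, none of them called. *Pcdh7* (BH-protocadherin) had counts of 0 to 1124 (median 1) and 0 to 658 (median 0), in 27 and 18 neurons (log2 fold change 0.46, SE 0.78, adjusted p = 0.967). Its positive sign turned under 7 of 32 other fits, and 1 Pyr←ORBvl neuron held 58.4% of the normalised *Pcdh7* level of its type. Exons of *Pcdh7* share 21.1% of their bases with an antisense transcript, *4932441J04Rik*, which had counts in 26 neurons, 22 of them with *Pcdh7* counts, so its level is uncertain. *Pcdh1* had counts in 11 and 10 neurons and *Pcdh11x*, too sparse for the test, in 4 and 4.

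Some type II cadherins were detected more often in Pyr←LP and others in Pyr←ORBvl neurons, and no member of this group passed either test. *Cdh10* (chr15:18818869-19016206, plus strand, GRCm38), a type II cadherin of cortical projection neurons, had counts of 0 to 1029 (median 1) in Pyr←LP and 0 to 476 (median 0) in Pyr←ORBvl neurons. It was detected in 56.8% (25 of 44, Wilson interval 42.2 to 70.3%) of Pyr←LP and 25.6% (10 of 39, 14.6 to 41.1%) of Pyr←ORBvl neurons, a difference that did not pass the adjusted threshold (Fisher's exact test, two-sided, p = 0.00714, adjusted p = 0.362). In the neurons with a count, the median was 99 counts in Pyr←LP and 18 in Pyr←ORBvl neurons. The ranges overlapped apart from 4 Pyr←LP neurons above the highest Pyr←ORBvl neuron in counts, and 2 in CPM. The level was 23.9 ± 43.4 against 5.60 ± 21.5 FPKM, with a log2 fold change of -2.41 (SE 0.84, unadjusted p = 0.00489, adjusted p = 0.126, edgeR). Of the normalised *Cdh10* level of Pyr←ORBvl neurons, 52.1% came from 1 neuron. *Cdh10* was called in 3 of 31 other fits (DESeq2 on 80 neurons, no filter on low counts, and without prefix 913), and adjusted p over the fits ran from 0.0119 to 0.999. Within prefixes the mean was higher in Pyr←LP neurons in 8 of 14 and in Pyr←ORBvl neurons in 5.

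*Cdh12* and *Cdh18*, which lie near *Cdh10* on chromosome 15, were also detected more often in Pyr←LP neurons. *Cdh12* had counts in 10 of 44 and 4 of 39 neurons. In those neurons the raw counts were 2 to 422 and 1 to 4. The levels were 2.71 to 98.0 FPKM (median 17.5) in the 10 Pyr←LP neurons, and 0.15, 0.18, 54.2 and 73.6 FPKM in the 4 Pyr←ORBvl neurons, so that the ranges overlapped. Over all neurons the mean was 7.05 in Pyr←LP and 3.28 FPKM in Pyr←ORBvl neurons, and 7 and 2 neurons exceeded 10 FPKM. The Pyr←ORBvl neurons with the highest *Cdh12* FPKM, 54.2 and 73.6, had totals of 13095 and 2410 counts, and 1 Pyr←LP neuron lay above the highest Pyr←ORBvl neuron in CPM. *Cdh18* had counts in 5 and 2 neurons, with a highest level of 64.3 FPKM in Pyr←LP (1 count in a total of 2545) and 5.20 FPKM in Pyr←ORBvl neurons, and all 5 Pyr←LP neurons lay above the highest Pyr←ORBvl neuron in CPM. Neither had at least 5 counts in enough neurons for the main edgeR test. Their detection shares did not differ past the threshold (Fisher's exact test, unadjusted p = 0.153 and p = 0.439). Without the filter on low counts edgeR called both as higher in Pyr←LP neurons, when it called 4950 of 18100 genes. The other type II genes of this chromosome did not share this direction, with *Cdh6* in 6 and 12 neurons and *Cdh9* in 0 and 2.

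*Cdh6*, *Cdh7*, *Cdh8*, *Cdh20* and *Cdh22* were detected in more Pyr←ORBvl than Pyr←LP neurons. This direction was common: of the 25 members with a count, 19 had the higher share in Pyr←ORBvl and 6 in Pyr←LP neurons. The mean number of all genes detected was also higher in Pyr←ORBvl neurons (3780 against 3301). *Cdh8*, known from sensory and prefrontal circuits, had counts of 0 to 866 in Pyr←LP and 0 to 817 in Pyr←ORBvl neurons, with medians of 0, in 22.7% (10 of 44) and 46.2% (18 of 39) of them (Fisher's exact test, two-sided, p = 0.0359, adjusted p = 0.573). Its level in the neurons that had it was not higher in Pyr←ORBvl neurons (median 10.1 FPKM, against 14.8 FPKM in Pyr←LP neurons), and the log2 fold change was 0.29 (SE 0.89, adjusted p = 0.983, edgeR). It was 2.54 with the prefix as a block and 2.72 with sums per prefix, neither called, and the mean was higher in Pyr←ORBvl neurons in 8 of 14 prefixes and lower in 4. The 10 Pyr←LP neurons with *Cdh8* were deep, with a median total of 990706 counts against 309959 in those without. *Cdh6*, a cadherin of subsets of projection neurons, had a log2 fold change of 1.13 (SE 0.95, adjusted p = 0.861), whose sign turned under 2 of 31 other fits.

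*Cdh7* was detected in 1 Pyr←LP and 7 Pyr←ORBvl neurons (2.27% and 17.9%; Fisher's exact test, two-sided, p = 0.0232). Its adjusted p was 0.649 when all genes with counts in at least 3 neurons were tested. The single Pyr←LP neuron had 2 counts, and the Pyr←ORBvl neurons had 1 to 181. *Cdh22* showed a like contrast in counts, with 1 count in each of 2 Pyr←LP neurons and 1 to 804 in 7 Pyr←ORBvl neurons (p = 0.0763, same test), at up to 55.7 FPKM (1 count in a total of 4214) and 243 FPKM. *Cdh20* had counts in 0 and 3 neurons, of which 1 held 393 of the 396 counts. The share test called no member in the 83 neurons, against 16 of 7542 genes (0.212%), and 3 of the 13 members in that test (*Pcdh8*, *Cdh10* and *Cdh8*) had an unadjusted p under 0.05, beside 8.41% of the 7542 genes. Among genes with counts in at least 3 neurons, 4 of 22 members (*Cdh7* as well) were at that level, beside 7.01% of 13542 genes.

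The remaining type II members gave few values. *Cdh11*, also a cadherin of mesenchymal cells, had counts in 8 and 9 neurons and a log2 fold change of -0.19 (SE 0.96, adjusted p = 0.991), whose sign turned under 8 of 31 other fits. *Cdh24* had counts in 1 and 2 neurons. *Cdh5* (VE-cadherin), the defining cadherin of endothelial cells, had 3 counts in 1 Pyr←LP neuron and none in Pyr←ORBvl neurons (0 of 39, which allows a share of up to 7.69%), and of the 4 endothelial markers *Cldn5* and *Tek* were at 0 in all 83 neurons, *Flt1* had counts in 1 Pyr←LP neuron (208 CPM) and *Pecam1* in 1 neuron of each type (1.47 and 194 CPM).

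*Cdh2* (N-cadherin), the main classical cadherin of synapses and neural tissue, was found in 8 of 44 and 9 of 39 neurons, with 2 to 50 counts in the Pyr←LP and 1 to 287 in the Pyr←ORBvl neurons that had it. The level was 3.15 ± 14.9 and 3.04 ± 8.39 FPKM. A single Pyr←LP neuron, with 4 *Cdh2* counts in a total of 4214, stood at 98.5 FPKM, and without it (left out after its value was seen) the Pyr←LP level was 0.934 ± 2.49 FPKM (SD, n = 43). Likewise, without its highest neuron (43.4 FPKM) the Pyr←ORBvl level was 1.98 ± 5.21 FPKM (SD, n = 38). The log2 fold change was 1.35 (SE 0.95, adjusted p = 0.753, edgeR), and it was 0.30 with DESeq2, 0.56 without prefix 822 and 2.39 in neurons with at least 100000 counts, none of them called. *Cdh4* (R-cadherin) had counts in 1 and 3 neurons. *Cdh13* (T-cadherin), which lacks a cytoplasmic tail, was found in 4 and 8 neurons with maxima of 458 and 618 counts (log2 fold change 0.90, SE 0.97, adjusted p = 0.927). Its fold change depended on the fit, with 4.23 for the prefix as a block (adjusted p = 0.0651), 3.95 for sums per prefix and 2.88 for DESeq2, none of them called.

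The set of detected members differed in almost every neuron. The 83 neurons held 80 distinct sets of detected members, and 78 neurons had a set that no other neuron had. A member at 0 can be a missed transcript, and other gene sets of like detection were not compared. These numbers therefore describe detection and cannot show which members a neuron expressed together. A neuron held 1 to 13 members (median 5), with a mean of 4.98 ± 2.36 (SD, n = 44) in Pyr←LP and 5.82 ± 3.09 (SD, n = 39) in Pyr←ORBvl neurons (difference 0.84, two-sided permutation test, p = 0.174). The number of all genes detected moved in the same direction, from 3301 ± 1343 to 3780 ± 1281, and across the 83 neurons the number of members followed the number of genes detected (Spearman rho 0.72, each pair of values from the same library). Cadherins made up 1.86 ± 1.17 and 2.46 ± 1.68 members per neuron (p = 0.0712) and protocadherins 3.11 ± 1.51 and 3.36 ± 1.74 (p = 0.536). With the 80 neurons of the study's marker heat map, the difference in members per neuron was 1.25 (same permutation test, p = 0.0431). These 80 include Pyr←ORBvl neurons 5 and 11, nearly the same library with 7 members each, which this test counts as if they were independent.

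Some pairs of type II members met in the same neurons. Of the 12 Pyr←ORBvl neurons with *Cdh6*, 9 also had *Cdh8*, and 5 had *Cdh7*. In Pyr←LP neurons *Cdh8* was found in 2 of 6 with *Cdh6*. Such overlap was not limited to type II pairs. All 12 Pyr←ORBvl neurons with *Cdh6* had *Pcdh17* and 9 had *Pcdh8*, as did 5 and 2 of the 6 Pyr←LP neurons. *Cdh10* and *Cdh8* were found together in 6 Pyr←LP neurons, of 25 with *Cdh10* and 10 with *Cdh8*, and in 3 Pyr←ORBvl neurons, of 10 and 18. *Cdh10* and *Cdh12* shared 6 Pyr←LP neurons, of 25 and 10. These overlaps are descriptions of single libraries and were not tested.

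The 8 neurons left out held 3 Pyr←LP and 5 Pyr←ORBvl neurons, each with a high sum of the GABAergic genes. All 8 had *Pcdh9*, 7 had *Pcdh10* and 5 had *Pcdh8*. Pyr←ORBvl neurons 5 and 11 were nearly the same library (Pearson r = 0.993 of log2(count + 1) across genes), with 736 and 763 *Pcdh8* counts. They entered the fits on 91 neurons, on 80 neurons and under the exclusion rule on the TPM scale, where *Pcdh8* had log2 fold changes of 5.399, 5.80 and 5.76, and with the pair averaged over the 80 neurons it was 5.65 (adjusted p = 6.61e-06, edgeR).

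Of 16 catenins and other adhesion partners, 10 could be tested and 1 was called. *Ctnna2* (alpha-N-catenin), the neuronal link between cadherins and actin, had counts in 5 of 44 Pyr←LP and 13 of 39 Pyr←ORBvl neurons. Its level was 0.679 ± 3.87 against 6.87 ± 17.4 FPKM (log2 fold change 3.61, SE 1.00, adjusted p = 0.0255, edgeR). The highest neuron held 78.5% of the normalised *Ctnna2* level in Pyr←LP and 35.5% in Pyr←ORBvl neurons. The call was lost under 11 of 31 other fits, among them the prefix as a block (3.06, adjusted p = 0.217) and leaving out prefix 822 (3.26, adjusted p = 0.131), 823 (2.36, adjusted p = 0.238), 830 (3.61, adjusted p = 0.0842) or 915 (3.56, adjusted p = 0.0504). Without prefix 831 it was 5.54. *Ctnna1* (alpha-E-catenin), named here after its values were seen, lay in the other direction and was not called, with counts in 11 and 2 neurons and 11.1 ± 27.8 against 2.12 ± 10.7 FPKM (-2.28, SE 1.00, adjusted p = 0.328). It was called in 2 of 31 other fits, with the prefix as a block (-5.54, adjusted p = 0.0221, edgeR) and without prefix 916 (-3.96, adjusted p = 0.0242, edgeR). With sums per prefix *Ctnna1* was not called. *Ctnnb1* (beta-catenin) had counts in 18 and 25 neurons (1.17, SE 0.81, adjusted p = 0.737) and *Ctnnd2*, the neural delta-catenin, in 21 and 20 (-0.63, SE 0.87, adjusted p = 0.945). The median log2 fold change of the 10 partners was -0.31, and the share test called none.

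No gene was called on 2 further lists of the cadherin superfamily, which leave out *Pcdh15* and *Cdh23*. Of 19 unclustered genes, 12 had a count and 4 could be tested, among them *Celsr2*, a large cadherin of planar polarity, with counts in 21 and 13 neurons (log2 fold change -1.12, SE 0.90, adjusted p = 0.843, edgeR). Of 58 clustered protocadherin rows, 41 had a count and 3 could be tested: *Pcdhga12* (-0.66), *Pcdhac2* (0.04) and *Pcdhgc5* (-0.18), with adjusted p of 0.947, 0.996 and 0.991. Clustered genes share exons and near-identical sequence, so their counts are uncertain.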

How the data were processed

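Single-neuron libraries were made with a Smart-seq2-based kit. The authors aligned paired reads to GRCm38 (mm10) with STAR 2.5.3, removed PCR duplicates, and deposited counts of uniquely aligned reads per gene and FPKM values for 91 neurons (counts per neuron from 2410 to 1948982). The depth differs between neurons, and a gene at 0 can be a missed transcript. Here, neurons with under 500 counts, or a sum of log2(count + 1) over *Slc32a1*, *Gad1* and *Gad2* above 7, were left out, which left 83. The deposited counts went into the robust quasi-likelihood test of edgeR 4.0.16 (R 4.3.3) after TMM scaling, with Benjamini-Hochberg adjustment over all 7542 genes tested, and the share of neurons with at least 1 count with Fisher's exact test (scipy 1.17.1). Members per neuron were compared by a permutation test with 100000 resamples. DESeq2 1.42.0 and, on log2 of the deposited FPKM plus 1 or 0.1, limma 3.58.1 were alternatives. Prefixes come from the neurons' names, and what a prefix stands for is not given in the sources used here. For prefixes 822, 823 and 826, some names carry a dash after the first digit and others do not. Both spellings were pooled, which is an assumption. Prefix 826 holds both types only through this pooling, so the count of 14 prefixes with both types depends on it. The fits that use prefixes rest on the same assumption. The scripts were tested on simulated data. Coordinates and promoters come from RefSeq (GRCm38.p6), where 19 of the 29 members had a promoter entry.

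The members, lists and tests were chosen with earlier results of these data known, and the study's own list of changed genes, made from the same neurons, includes *Pcdh8* and *Cdh10*. All 29 members were accounted for; values per neuron were given for those called and for the 6 detected in most neurons, and partners were named if called, beside *Ctnnb1*, *Ctnna2*, *Ctnnd2* and *Celsr2*; *Ctnna1* was named after its values were seen. Partner fits and permutation within prefixes were added after the data were seen.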

Additional observations from a re-analysis of the deposited data

How the results depend on the processing

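Members called by edgeR numbered 1 (*Pcdh8*) in the main test and under 27 of 32 alternatives. They were 9 members without a filter on low counts, when 4950 of 18100 genes were called, 0 with edgeR's own filter (2 of 2189 genes called, *Pcdh8* not tested) and 0 with counts summed per prefix with the replicate block (3 of 7542 genes called). They were 2, *Pcdh8* and *Cdh10*, with DESeq2 on the 80 neurons, and 1 to 2 when each prefix was left out in turn (2 without prefix 913). The share test called 0 members under all 23 alternatives, and leaving out prefixes gave 0 to 0. The difference in members per neuron was 1.25 (permutation test, p = 0.0431) with the 80 neurons, and 0.84 to 1.08 under the 3 other alternatives, with p from 0.111 to 0.273. The 80 neurons count the near-identical Pyr←ORBvl neurons 5 and 11 as if they were independent. Of single genes, *Pcdh8* lost its call only with sums per prefix (6.52), among the 31 fits that tested it, ranged from 4.79 to 5.58 without each prefix, and was lowest with limma on log2 FPKM (2.08 with a pseudocount of 1 and 3.15 with 0.1, both called). Signs turned for members and partners that were not called. *Cdh6* was -0.95 with detected genes as covariate and -0.64 with the prefix as replicate block; *Cdh8* reached -0.78 (leave-one-out range -0.78 to 0.76). *Cdh11* was 1.00 with DESeq2, 1.01 with DESeq2 on 80 neurons, 1.93 with the replicate block, 2.99 with sums, 0.14 and 0.28 with limma, and -0.63 to 1.19 without each prefix (0.23 without prefix 727). *Pcdh7* was -0.61, -0.66, -0.23, -0.23, -0.20 and -0.43 under the same 6, and -0.85 to 0.72 without each prefix. *Pcdh1* was 0.039 with limma and a pseudocount of 0.1, *Pcdh19* was 0.53 with sums, and *Ctnnd2* was 0.25 with all 91 neurons, 0.16 and 0.041 with the 80 neurons (edgeR and DESeq2) and 0.27 with the exclusion rule on the TPM scale. The causes were not tested. The sources used here tie no neuron to a mouse, and shallow neurons limit what a 0 can show.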
